A study of Mus musculus with 6 samples.

Results

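The cornified envelope genes are the structural genes of the outer, dead layer of squamous epithelium. They were chosen by symbol: every gene whose name starts with Sprr or with Lce and a number, plus Flg, Flg2, Hrnr, Rptn, Tchh, Tchhl1, Crnn, Lor, Ivl, Crct1 and Cnfn. This gave 49 of the 55487 genes counted. Of these, 48 lie within 1392 kb of chromosome 3, the epidermal differentiation cluster, between positions 92080271 and 93471980 on GRCm38, and Cnfn lies on chromosome 7. The annotation calls 47 of them protein-coding, and Sprr2c-ps and Sprr2g pseudogenes.

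RNA was sequenced from 6 tongue grafts of B16F10, a pigmented mouse melanoma line, grown in C57BL/6J mice labelled wild type. In 3 inhibition grafts the labels gave inhibition of the nociceptive nerves that innervate lymph nodes, and 3 control grafts were labelled vehicle-treated. The design text describes AAV2/retro-Trpv1-hM4D(Gi)-mCherry for inhibition and AAV2/retro-Trpv1-mCherry for its control, injected into cervical nodes 6 weeks before the melanoma cells, with deschloroclozapine, the ligand of hM4D(Gi), given 2 times per day for 12 days. It thus gives the ligand to mice of both vectors, so whether the controls received vehicle or ligand was unclear. Both vectors name Trpv1, a channel gene of nociceptive neurons, as their driver, and which cells took them up was not measured here. Non-tumour tissue was trimmed off, per the design text, and RNA was then taken from the whole graft, so each library mixes melanoma RNA with that of any host cells left.

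Squamous cells that leave the basal layer build an envelope under the plasma membrane, in which transglutaminases bind involucrin, loricrin, small proline-rich (Sprr) and late cornified envelope (Lce) proteins to one another. Proteins of the S100-fused type, filaggrin, hornerin, repetin, trichohyalin, trichohyalin-like, filaggrin-2 and cornulin, join a calcium-binding head to long repeats and bundle keratin or reinforce the envelope. The mouse tongue carries filiform papillae with a hard, cornified surface, in which repetin and trichohyalin are known to be made.

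The libraries held between 14477277 and 20972494 counts. Of the keratins that mark cornifying epidermis, Krt2 and Krt77 had 0 counts in all 6 libraries (up to 3 counts per library, between 0.143 and 0.207 CPM, is the limit that a count of 0 allows) and Krt1 stood at no more than 0.666 CPM, while Krt10 reached 19.5 CPM. The tongue mucosa keratin Krt13 lay between 660 and 2567 CPM in inhibition grafts and between 455 and 1362 CPM in control grafts, and Krt84, a hard keratin of filiform papillae, between 45.9 and 157 CPM against 15.3 and 35.0 CPM. The basal keratins Krt5, Krt14 and Krt15 together were at 462, 544 and 444 CPM in inhibition grafts and 369, 582 and 466 CPM in control grafts, so they overlapped. CPM here means a count divided by its library's TMM-adjusted size, so that libraries of unequal depth can be compared. Over the marker lists, all 6 tongue mucosa genes had positive log2 fold changes (median 1.86, 4 at an unadjusted p under 0.05), as had 4 of 6 basal genes (median 0.40, 0 at that level), 1 of 4 wound keratins (median -0.34) and all 5 fibroblast genes (median 0.60, 4 at that level), while 0 of 6 salivary gland genes had enough counts to test. Of all genes tested, 8.36% were higher at an unadjusted p under 0.05.

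Most cornified envelope genes had higher mean levels in inhibition grafts than in control grafts, and most Sprr2 genes had lower ones, but none passed edgeR's adjusted test. The tested S100-fused, Lce1 and Lce3 genes, Lor, Crct1, Cnfn, Sprr1a, Sprr1b and Sprr3 all had positive log2 fold changes (inhibition over control throughout), while 5 of the 6 tested Sprr2 genes had negative ones. Of the 49 genes, 36 passed the filter on low counts and 13 did not. Sprr4 and Sprr2c-ps had 0 counts in every library. The median log2 fold change was 1.31 over the 36, from -3.59 to 3.21, against 0.00 over all 15666 genes tested. It was 0.75 without inhibition 2, 0.96 without control 3 and 2.06 without control 2, and lay between 1.0 and 1.72 without each of the others. In edgeR's quasi-likelihood test 0 of the 36 passed at an adjusted p under 0.05, where 0.0383% of all genes tested did. At an unadjusted p under 0.05 there were 13 of the 36 higher, where 8.36% of all genes were higher, and 2 lower, where 7.0% were lower. DESeq2, run on the same counts, called 9 members higher and 1 lower at its adjusted p under 0.05, against 3.68% of all genes with an adjusted p called in either direction. In 7 of the 36 all 3 inhibition grafts lay above all 3 control grafts, a pattern seen in 10.2% of all genes, and in 2 all 3 lay below, which 11% of all genes did. The grafts may or may not come from separate animals, which the labels do not say, so these p-values measure only the spread between the samples.

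**Figure D1:**
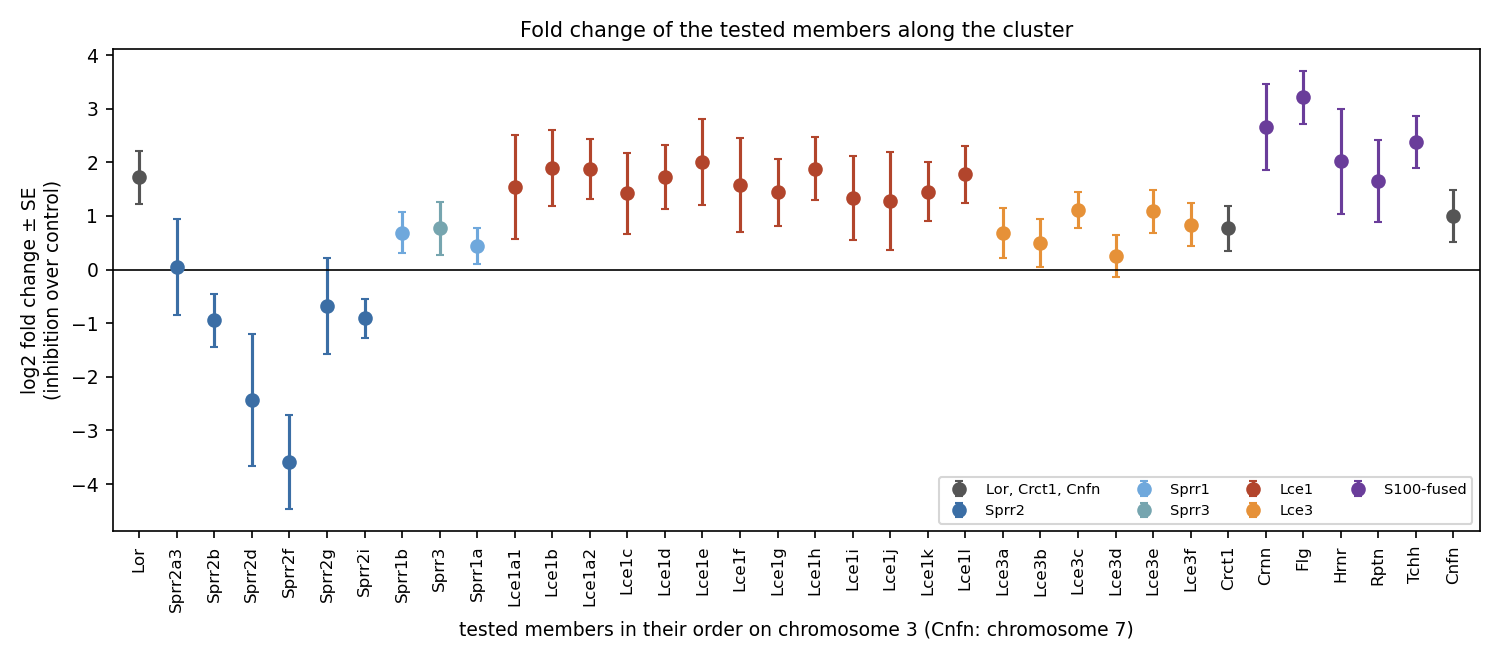
Log2 fold change of inhibition over control (vertical axis) with its standard error for the 36 tested genes, in their order along chromosome 3, with Cnfn of chromosome 7 last. Of the Sprr2 genes 5 lie below 0 and Sprr2a3 at 0.05, with the lowest at -3.59, whereas Lce1 genes lie between 1.28 and 2.01 and the S100-fused genes between 1.65 and 3.21.

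The bases just before the start of 4 genes are shown because they stand for subfamilies whose fold changes had opposite signs or unequal sizes: Sprr2f, Lce1l, Lce3c and Flg had the smallest p of the Sprr2, Lce1, Lce3 and S100-fused genes. Each is the 250 bases before the RefSeq start on GRCm38.p6, 5′ to 3′ along the gene's own strand. Capitals mark the AP-1 letters TGANTCA, the STAT letters TTCNNNGAA and the TATA letters TATAAA, searched on both strands; no 2 marked stretches overlap.
Sprr2f, chr3:92364937-92365186, plus strand: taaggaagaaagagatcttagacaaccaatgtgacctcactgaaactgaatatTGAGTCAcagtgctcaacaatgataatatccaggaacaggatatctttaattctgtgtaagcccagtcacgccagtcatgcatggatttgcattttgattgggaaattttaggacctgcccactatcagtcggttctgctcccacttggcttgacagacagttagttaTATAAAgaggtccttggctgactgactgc
Lce1l, chr3:92851287-92851536, minus strand: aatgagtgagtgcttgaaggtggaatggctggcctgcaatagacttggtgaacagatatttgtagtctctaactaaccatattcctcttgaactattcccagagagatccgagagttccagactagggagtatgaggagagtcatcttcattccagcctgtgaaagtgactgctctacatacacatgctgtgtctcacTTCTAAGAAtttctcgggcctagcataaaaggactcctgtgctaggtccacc
Lce3c, chr3:92944236-92944485, plus strand: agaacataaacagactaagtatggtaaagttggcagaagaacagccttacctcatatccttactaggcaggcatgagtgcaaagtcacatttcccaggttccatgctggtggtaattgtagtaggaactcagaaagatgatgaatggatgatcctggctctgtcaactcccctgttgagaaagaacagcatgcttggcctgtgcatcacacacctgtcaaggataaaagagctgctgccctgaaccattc
Flg, chr3:93273296-93273545, plus strand: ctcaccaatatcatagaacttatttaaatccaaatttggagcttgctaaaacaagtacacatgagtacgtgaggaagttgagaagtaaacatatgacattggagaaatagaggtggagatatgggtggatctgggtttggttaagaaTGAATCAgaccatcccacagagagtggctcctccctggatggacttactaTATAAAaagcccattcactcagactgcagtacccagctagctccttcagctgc
Sprr2f holds 1 AP-1 stretch, 197 to 191 bases before the start, and 1 TATA stretch, 29 to 24 bases before it. Flg also holds 1 of each, at 103 to 97 and 53 to 48 bases. Lce1l holds 1 STAT stretch, 52 to 44 bases before the start, and Lce3c none of these letters. RefSeq gave a start for 44 of the 49 genes.

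The AP-1 letters occurred before 7 of 10 Sprr2 genes and 5 of 7 S100-fused genes but before 0 of 13 Lce1 and 0 of 6 Lce3 genes, against 6.75% of 32851 promoter windows of the same length. In each of the 7 Sprr2 windows an AP-1 stretch began 193 to 198 bases before the start, so they do not count as 7 separate occurrences. The 5 S100-fused genes include Flg2 and Tchhl1, which were too low to test, and Tchh and Hrnr held no AP-1 letters. The 13 Lce1 windows are not those of the 13 tested Lce1 genes. They include Lce1m, which was below the filter, and leave out Lce1f, which was tested but had no RefSeq start. TATAAA occurred before 7 of 10 Sprr2, 4 of 7 S100-fused, 2 of 13 Lce1 and 1 of 6 Lce3 genes, against 12.4% of all windows. STAT letters were before 1 Sprr2 and 1 Lce1 gene (7.02% of all windows), and the grainyhead letters AACCNGTT before 1 S100-fused gene (1.79% of all windows). AP-1 letters were thus found both before genes that were higher and before genes that were lower in inhibition grafts. Aligned end to end, the windows of Sprr2d and Sprr2e were 89.3% identical and those of Sprr2f and Sprr2i 74.0%, while that of Sprr2a3 was between 51.2% and 52.6% identical to these 4. Windows of Sprr2 genes were a median of 51.5% identical to those of Lce1 genes. These letters describe the sequence and say nothing of binding.

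S100-fused genes had the largest median log2 fold change of the subfamilies, 2.38 over the 5 tested, all positive. An unadjusted p under 0.05 was reached by 3 of them, where 8.36% of all genes tested were higher. Flg encodes profilaggrin, which is cut into filaggrin units that bundle keratin. It stood at 2.52, 3.28 and 1.24 CPM in inhibition grafts 1, 2 and 3, against 0.181, 0.260 and 0.290 CPM in control grafts 1, 2 and 3. All 3 inhibition grafts lay above all controls, on 26 to 64 counts against 3 to 6 counts per library, and the log2 fold change was 3.21 ± 0.49 (standard error, n = 3 per group; edgeR adjusted p = 0.0788, DESeq2 adjusted p = 0.000116). Tchh, trichohyalin, was at 36.5, 60.0 and 23.3 CPM in inhibition grafts and 4.16, 10.4 and 8.42 CPM in controls. The groups did not overlap, with a log2 fold change of 2.38 ± 0.48 (edgeR adjusted p = 0.178, DESeq2 0.000972). Crnn, cornulin, a protein of mucosal squamous epithelium in humans, was at 12.1, 29.3 and 4.91 CPM against 1.27, 4.10 and 2.03 CPM in controls. These groups were also apart, by a log2 fold change of 2.66 ± 0.80 (edgeR adjusted p = 0.242, DESeq2 0.0426).

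Repetin and hornerin overlapped between the groups. Rptn, the S100-fused gene with the most counts, was at 332, 480 and 120 CPM in inhibition grafts and 60.3, 186 and 51.6 CPM in controls. Control 2 lay above inhibition 3, and the log2 fold change was 1.65 ± 0.77 (edgeR adjusted p = 0.393). Hrnr was at 6.73, 9.38 and 1.38 CPM against 0.362, 3.25 and 0.774 CPM in controls, with the same pair out of order (2.02 ± 0.98, edgeR adjusted p = 0.393). Flg2 and Tchhl1 were too low to test. Flg2 had 1 count in all 6 libraries, in inhibition 2, and Tchhl1 had 7 counts in the inhibition and 2 in the control libraries. In TPM, a level scaled for transcript length, Rptn was the highest of the 49 genes in inhibition grafts, at a mean of 247, followed by Sprr3 at 153, Cnfn at 131, Lor at 108 and Crct1 at 88.5. In control grafts Sprr3 was the highest at 89.8 TPM, followed by Rptn at 79.1, Cnfn at 65.8, Crct1 at 52.3 and Sprr1a at 38.9, with Lor at 32.9. Flg was at 0.227 TPM over all 6 libraries.

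**Figure D2:**
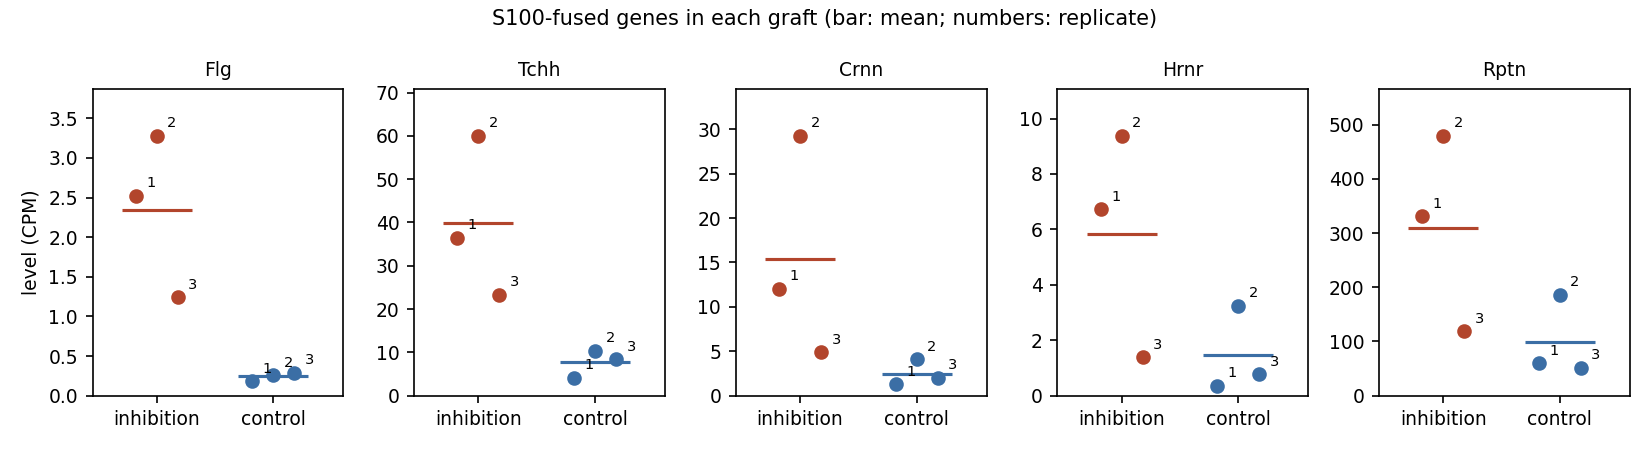
Level in CPM (vertical axes, separate scales) of the 5 tested S100-fused genes in each inhibition and control graft; points are grafts with their replicate number and bars are group means. Groups are apart for Flg, Tchh and Crnn, while control 2 lies above inhibition 3 for Hrnr and Rptn.

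The Lce1 genes encode proteins that enter the envelope late. All 13 tested had a positive log2 fold change, between 1.28 and 2.01 with a median of 1.58. At an unadjusted p under 0.05 there were 7 of them, where 8.36% of all genes tested were higher. In 3 of the 13 all inhibition grafts lay above all controls, as in 10.2% of all genes tested. Lce1l, the Lce1 gene with the smallest p, was at 3.50, 4.36 and 1.76 CPM in inhibition grafts and 0.603, 1.76 and 0.484 CPM in controls. Its lowest inhibition graft and its highest control were nearly level, and the log2 fold change was 1.78 ± 0.53 (edgeR adjusted p = 0.208, DESeq2 0.0303). Lce1a2 was at 6.87, 12.1 and 3.81 CPM against 1.21, 3.64 and 1.40 CPM in controls (1.88 ± 0.56, edgeR adjusted p = 0.223, DESeq2 0.00239). Lce1h was at 4.76, 11.1 and 2.57 CPM against 1.57, 2.47 and 1.02 CPM in controls (1.88 ± 0.59, edgeR adjusted p = 0.227, DESeq2 0.00613). These 3 are the Lce1 genes in which the groups were apart.

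Other Lce1 genes had control 2 above inhibition 3. Lce1d, with the highest mean CPM of the subfamily over the 6 libraries, was at 9.74, 14.7 and 4.38 CPM in inhibition grafts and 1.81, 5.27 and 1.74 CPM in controls (log2 fold change 1.72 ± 0.60, edgeR adjusted p = 0.266), and Lce1c was above it in the control mean (3.002 against 2.94 CPM). Lce1f was at 5.25, 15.4 and 4.10 CPM against 0.845, 6.12 and 1.45 CPM in controls (1.58 ± 0.88, edgeR adjusted p = 0.441). Lce1b was at 6.66, 10.8 and 3.48 CPM against 0.603, 3.90 and 1.21 CPM in controls (1.89 ± 0.71, edgeR adjusted p = 0.289). In each of them inhibition 2 was the highest of the 6 grafts and control 1 or 3 the lowest. Lce1e was at 3.92, 6.61 and 1.29 CPM against 0.483, 2.08 and 0.436 CPM in controls (2.01 ± 0.80, edgeR adjusted p = 0.304, DESeq2 0.0380). Lce1k was at 2.94, 3.997 and 1.48 CPM against 0.543, 1.95 and 0.629 CPM in controls (1.45 ± 0.55, edgeR adjusted p = 0.271). The remaining tested genes, Lce1a1, Lce1c, Lce1g, Lce1i and Lce1j, had log2 fold changes of 1.28 to 1.54 and did not pass at an unadjusted p under 0.05. Lce1m, which lies apart from the others beyond the Lce3 genes, was below the filter and near level, at 0.420, 0.205 and 0.334 CPM against 0.181, 0.520 and 0.145 CPM in controls. Between 9.12% and 27.1% of the 50-base stretches of the tested Lce1 transcripts also occur in a transcript of another gene, and how such reads were counted is not given in the sources used here, so single Lce1 values are uncertain.

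Lce3 genes had smaller fold changes. All 6 were positive, between 0.26 and 1.11 with a median of 0.76. At an unadjusted p under 0.05 there were 2 of them, where 8.36% of all genes tested were higher. In human skin, LCE3 genes are known for their induction after barrier injury and in psoriasis, while LCE1 genes are made in normal skin. Lce3c was at 10.2, 15.4 and 7.15 CPM in inhibition grafts and 4.41, 7.22 and 3.63 CPM in controls. Control 2 and inhibition 3 were nearly level, and the log2 fold change was 1.11 ± 0.34 (edgeR adjusted p = 0.223, DESeq2 0.0194). Lce3e was at 5.54, 6.71 and 3.15 CPM against 2.84, 3.19 and 1.26 CPM in controls (1.09 ± 0.40, edgeR adjusted p = 0.256). Lce3a was at 8.76, 12.7 and 4.72 CPM against 3.92, 8.91 and 3.58 CPM in controls (0.68 ± 0.47, edgeR adjusted p = 0.515). In all 6 Lce3 genes control 2 lay above inhibition 3, as it did in 10 of the 13 tested Lce1 genes. Whether Lce1 and Lce3 genes differed in their response was not tested. Lce3 transcripts share 12.1% to 49.3% of their 50-base stretches with other genes. Lce6a had 1 count in the 6 libraries.

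Lor, loricrin, the most abundant envelope protein of skin, was at 59.1, 87.8 and 28.0 CPM in inhibition grafts and 13.2, 24.9 and 15 CPM in controls, with the groups apart (log2 fold change 1.72 ± 0.50, edgeR adjusted p = 0.239, DESeq2 0.0308). Cnfn, cornifelin, the envelope gene outside the cluster, was at 31.2, 40.3 and 13.9 CPM against 11.3, 21.1 and 10.6 CPM in controls and overlapped (1.0 ± 0.48, edgeR adjusted p = 0.394). Crct1 was at 19.8, 31.6 and 12.3 CPM against 11.2, 17.8 and 8.62 CPM in controls (0.77 ± 0.42, edgeR adjusted p = 0.430). Ivl, involucrin, the scaffold on which the envelope of skin is begun, was nearly absent. It had 4, 7 and 2 counts in inhibition libraries and 0, 1 and 0 in control libraries. Scaled for library size, the ratio of pooled counts was 12.5, with an exact 95% interval of 1.875 to 531 that covers counting error only.

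**Figure D3:**
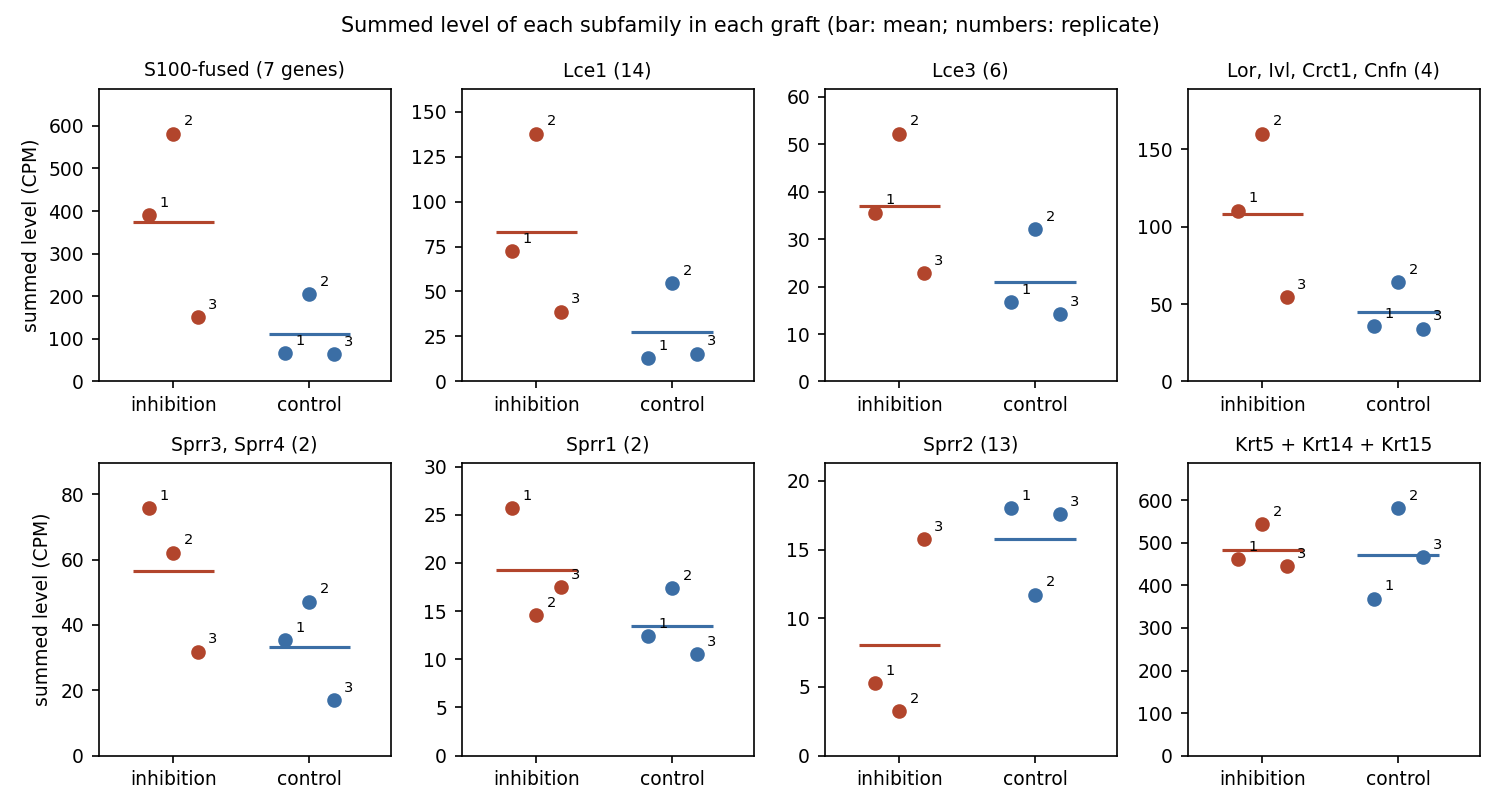
Summed level in CPM (vertical axes, separate scales from 0) of each subfamily, and of Krt5, Krt14 and Krt15 together, in each inhibition and control graft; points carry the replicate number and bars are group means. S100-fused genes sum to 390, 582 and 150 CPM in inhibition grafts and 66.3, 204 and 63.2 CPM in controls, whereas Sprr2 genes sum to 5.25, 3.23 and 15.8 CPM in inhibition grafts and 18.0, 11.7 and 17.6 CPM in controls.

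Sprr proteins are short proline-rich bridges between other envelope proteins. The Sprr1 and Sprr3 genes had small positive fold changes with overlapping groups. Sprr3, a gene of oral and oesophageal epithelium, was at 75.8, 62.1 and 31.8 CPM in inhibition grafts and 35.4, 47.1 and 16.9 CPM in controls (log2 fold change 0.77 ± 0.49, edgeR adjusted p = 0.501). Sprr1a was at 17.7, 7.02 and 14.1 CPM against 8.81, 11.7 and 7.94 CPM in controls (0.44 ± 0.33, edgeR adjusted p = 0.543). Sprr1b was at 7.99, 7.58 and 3.43 CPM against 3.56, 5.66 and 2.56 CPM in controls (0.69 ± 0.39, edgeR adjusted p = 0.422). Sprr1a was lowest in inhibition 2, the graft in which all 5 tested S100-fused genes and all 13 tested Lce1 genes were highest.

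The Sprr2 genes, which in mice are known to be induced in inflamed and injured epithelia, had mostly negative fold changes, 5 of 6 tested (median -0.93, or -2.04 without inhibition 3). Sprr2f had 0, 0 and 6 counts in inhibition libraries and 36, 11 and 25 in control libraries, which is 0, 0 and 0.286 CPM against 2.17, 0.716 and 1.21 CPM. The groups did not overlap (log2 fold change -3.59 ± 0.88, edgeR adjusted p = 0.172, DESeq2 0.00834). Scaled for library size, the ratio of pooled counts was 0.0800 with an exact 95% interval of 0.0284 to 0.183, counting error only. Sprr2d was at 0.0701, 0 and 2.10 CPM in inhibition grafts, from 1, 0 and 44 counts, and at 6.52, 1.76 and 4.26 CPM in controls, from 108, 27 and 88 counts. Here inhibition 3 lay above control 2, and the log2 fold change of -2.43 ± 1.23 did not pass (edgeR adjusted p = 0.407, DESeq2 0.570). Sprr2e, below the count filter and so not tested, had 1, 0 and 0 counts in inhibition libraries and 19, 5 and 7 in control libraries. That is a ratio of pooled counts, scaled for library size, of 0.0310, with an exact 95% interval of 0.000760 to 0.186. Sprr2i was at 1.26, 0.922 and 2.29 CPM against 2.35, 2.80 and 3.34 CPM in controls, with the groups apart by a small margin (-0.91 ± 0.37, edgeR adjusted p = 0.286).

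Sprr2a3 had the highest mean CPM of the Sprr2 genes over the 6 libraries, though Sprr2d was higher in controls (4.18 against 3.12 CPM). Sprr2a3 was at 2.10, 0.359 and 7.15 CPM in inhibition grafts and 2.17, 3.32 and 3.87 CPM in controls, with a log2 fold change of 0.05 ± 0.89 (edgeR adjusted p = 0.985). Inhibition 2 was its lowest graft and inhibition 3 its highest, and the sign of the fold change turned when inhibition 3 was left out (-1.42). Sprr2b and Sprr2g had log2 fold changes of -0.95 and -0.68. Sprr2k, which was below the filter, had 7, 18 and 8 counts in inhibition libraries against 4, 2 and 6 in control libraries, so that the inhibition grafts were above the controls. Sprr2h was at 0.0701, 0.102 and 0.286 CPM against 0.784, 0.260 and 0.242 CPM in controls, and Sprr2j-ps at 0.280, 0.256 and 0.238 CPM against 0.543, 0.781 and 0.290 CPM. Sprr2a1 and Sprr2a2 share 96.3% and 96.5% of their 50-base stretches with other genes and Sprr2a3 61.1%, so their counts are uncertain. For Sprr2d, Sprr2e, Sprr2f and Sprr2i the share was 4.27%, 10.2%, 0.714% and 12.5%.

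**Figure D4:**
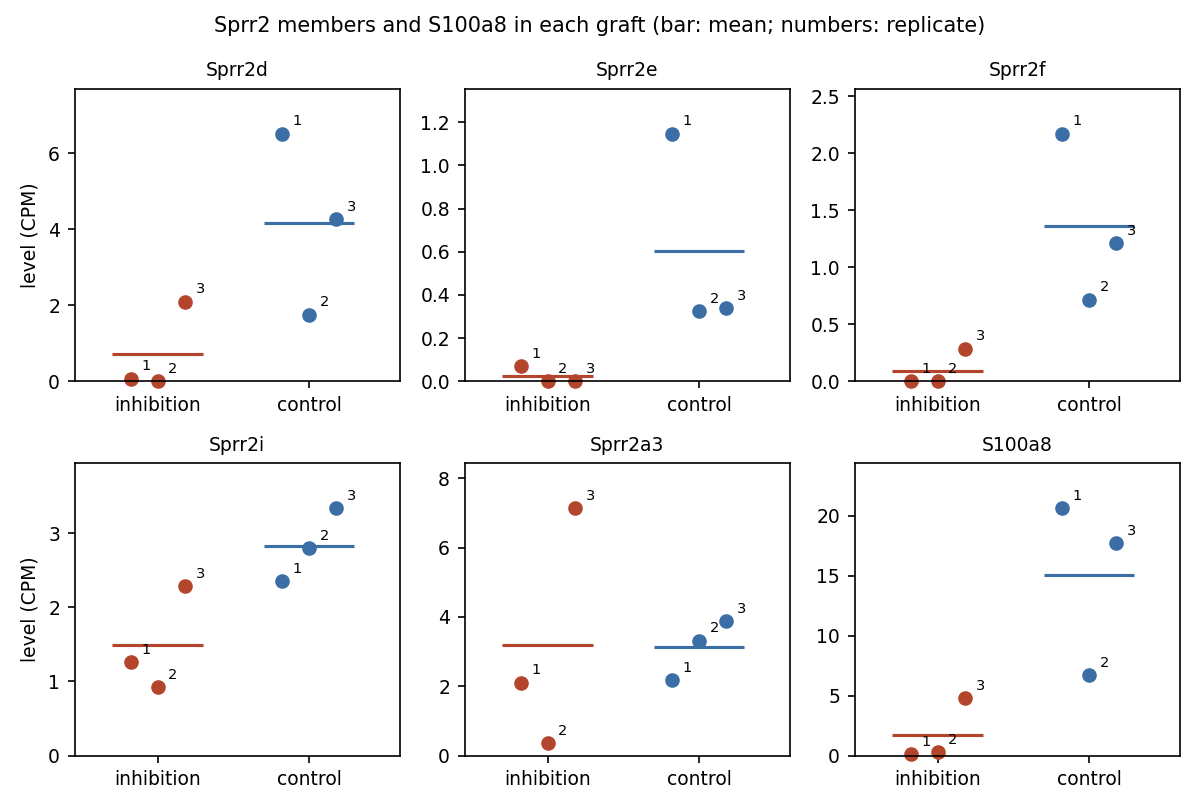
Level in CPM (vertical axes, separate scales from 0) of 5 Sprr2 genes and of S100a8 in each inhibition and control graft; points carry the replicate number and bars are group means. Sprr2d, Sprr2e and Sprr2f are at or near 0 in inhibition 1 and 2, Sprr2a3 overlaps widely, and S100a8 is highest in control 1 and lowest in inhibition 1.

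S100a8, a calprotectin gene in the same chromosome cluster that neutrophils and stressed keratinocytes both make, was at 0.140, 0.307 and 4.81 CPM in inhibition grafts and 20.6, 6.70 and 17.7 CPM in controls (log2 fold change -3.02 ± 1.16, edgeR adjusted p = 0.320). For S100a8 as for Sprr2d and Sprr2f, control 1 was the highest graft, control 3 the next, control 2 the lowest control and inhibition 3 the highest inhibition graft. The other Sprr2 genes did not all share this order. Control 2 was the lowest control in 3 of the 6 tested, and control 1 was the lowest control for Sprr2i, Sprr2a3 and Sprr2b. In Sprr2b controls 1 and 2 were nearly level (0.8448 and 0.8459 CPM). All 9 neutrophil marker genes had negative fold changes, 5 of them at an unadjusted p under 0.05, where 7.0% of all genes tested were lower. Their summed levels were 8.76 to 31.3 CPM in inhibition grafts and 37.9 to 97.2 CPM in controls. None of the 9 was at 0 in any library. Of the keratins of wounded epithelium, Krt6b was at 86.7, 69.1 and 145 CPM against 143, 178 and 182 CPM in controls (-0.74 ± 0.29, edgeR adjusted p = 0.312), while Krt6a had a log2 fold change of 0.22. The part of neutrophils in the Sprr2 result was not tested.

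Over the 24 tested Lce1, Lce3 and S100-fused genes, inhibition 2 was the highest of the 6 grafts in 23, inhibition 3 was the lowest inhibition graft in 24, and control 2 was the highest control in 23. Control 2 was above inhibition 3 in 18 of the 24. All 3 inhibition grafts lay above all 3 controls in 3 of 13 Lce1, 0 of 6 Lce3 and 3 of 5 S100-fused genes. Of all genes tested, 10.2% had that pattern. Among the 6 tested Sprr2 genes inhibition 3 was the highest inhibition graft in 6 and inhibition 2 the lowest of all grafts in 4. The genes share libraries and so do not give separate evidence of this order.

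The subfamily sums were also set against the basal keratins of the same graft, with no test. Per 100 CPM of Krt5, Krt14 and Krt15, the S100-fused genes were at 84.4, 107 and 33.8 CPM in inhibition grafts and 18.0, 35.1 and 13.6 CPM in controls. The Lce1 genes were at 15.7, 25.4 and 8.72 CPM against 3.49, 9.41 and 3.32 CPM in controls, and the Sprr2 genes at 1.14, 0.594 and 3.55 CPM against 4.89, 2.01 and 3.77 CPM. The groups overlapped in these 3 ratios, with control 2 above inhibition 3 for the S100-fused and Lce1 genes and inhibition 3 above control 2 for the Sprr2 genes. They also overlapped for Lce3, for Sprr1 and for Sprr3 with Sprr4. The ratio of Lor, Ivl, Crct1 and Cnfn together was apart, at 23.9, 29.45 and 12.2 CPM in inhibition grafts and 9.66, 10.98 and 7.33 CPM in controls. With the mean log2 level of these 3 keratins as a covariate edgeR called 4 of the 36 members, all higher, against 0.581% of all genes with this covariate. They were Flg (log2 fold change 2.71), Tchh (1.88), Crnn (1.67) and Lor (1.14). A mean of logs weighs the 3 keratins alike, though Krt15 had a log2 fold change of 1.19 ± 0.81 and Krt14 one of -0.23 ± 0.15. Inhibition 2 was the highest graft on that mean (0.69, control 2 at 0.25), whereas control 2 had the highest sum (582 CPM). The covariate is thus not the basal sum used in the ratios. In bulk tissue, fewer cells of a type and less RNA per cell cannot be told apart.

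**Figure D5:**
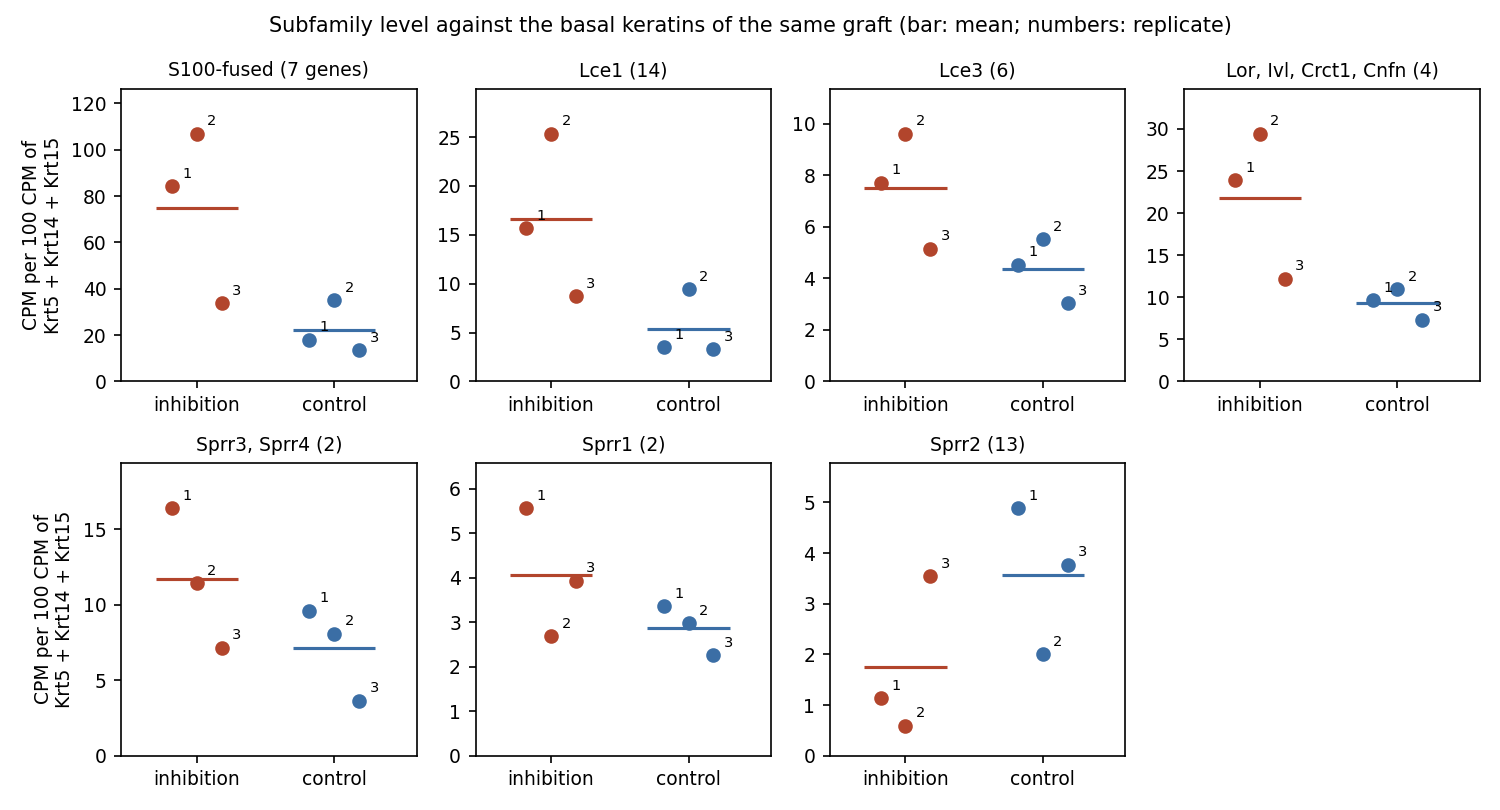
Summed level of each subfamily per 100 CPM of Krt5, Krt14 and Krt15 in the same graft (vertical axes, separate scales from 0), for inhibition and control grafts; points carry the replicate number and bars are group means. S100-fused genes are at 84.4, 107 and 33.8 in inhibition grafts and 18.0, 35.1 and 13.6 in controls, so inhibition 3 and control 2 are close.

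Genes that build the envelope with these proteins had mostly positive fold changes too, and edgeR called 0 of them at an adjusted p under 0.05. All 12 tested genes of cross-linking and scaffold, of 13 listed, had positive fold changes (median 1.30), 6 at an unadjusted p under 0.05. Beside this count and those of the next lists, 8.36% of all genes tested were higher at that level. Kprp, a keratinocyte proline-rich protein gene of the same cluster, was at 13.1, 17.3 and 9.39 CPM in inhibition grafts and 2.96, 4.88 and 2.81 CPM in controls, without overlap (log2 fold change 1.91 ± 0.29, edgeR adjusted p = 0.0788). Tgm3, a transglutaminase of the papillae and hair, was at 96.9, 134 and 22.6 CPM against 19.9, 31.6 and 14.8 CPM in controls (1.94 ± 0.74, edgeR adjusted p = 0.324), and Tgm1, the membrane-bound transglutaminase, at 13.3, 14.96 and 5.67 CPM against 3.62, 7.22 and 3.53 CPM (1.24 ± 0.43, edgeR adjusted p = 0.259). Of the barrier lipid genes 11 of 12 were tested and all 11 were positive (median 1.07), 7 at an unadjusted p under 0.05. Pnpla1, which makes acylceramides, was at 2.24, 1.999 and 1.38 CPM against 0.121, 0.520 and 0.145 CPM in controls (2.85 ± 0.53, edgeR adjusted p = 0.122). Proteases and inhibitors had 11 of 13 tested genes positive (16 listed, median 0.86) and 2 higher at an unadjusted p under 0.05.

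The regulators of late differentiation were transcription factors, the receptors Notch1 and Notch3, and Keap1. Of 25 listed, 23 were tested, 17 positive and 6 negative (median 0.39), and an unadjusted p under 0.05 was reached by 8 of the positive genes, Notch1 and Notch3 among them, and 2 of the negative genes. Of all genes tested, 8.36% were higher and 7.0% lower at that level. Zfp750, a factor of terminal differentiation, was at 7.29, 8.15 and 3.05 CPM in inhibition grafts and 1.03, 2.86 and 1.74 CPM in controls (log2 fold change 1.71 ± 0.46, edgeR adjusted p = 0.186), and Ovol1 at 5.12, 7.43 and 2.95 CPM against 1.33, 2.28 and 2.13 CPM (1.43 ± 0.37, edgeR adjusted p = 0.179). The 2 lower genes were Cebpb (-0.74 ± 0.26, edgeR adjusted p = 0.251) and the AP-1 gene Junb (-0.36 ± 0.13, edgeR adjusted p = 0.259). Melanoma cells, muscle and stroma can also express several of these genes. Of the S100 genes of the cluster 10 of 14 were tested, 5 positive and 5 negative, and S100a7a was the 1 gene higher and S100a8 the 1 lower at an unadjusted p under 0.05.

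The 15 skeletal muscle markers were all positive, 9 of them at an unadjusted p under 0.05, where 8.36% of all genes tested were higher. None was at 0 in any library, and their summed level was 4454, 3976 and 2631 CPM in inhibition grafts and 973, 2179 and 1389 CPM in controls. With the muscle level as a covariate 1 of the 36 members was at an unadjusted p under 0.05, as were 3.24% of all genes, against 15 members and 15.4% of all genes without it, and 22 of the 36 fold changes changed sign, the median turning to -0.28, with the S100-fused median at 0.44 and the Sprr2 median at -0.04. That covariate, a mean log2 level centred over the 6 grafts, was 1.08, 0.93 and 0.08 in inhibition grafts and -1.32, 0.07 and -0.85 in controls. Inhibition 3 and control 2 were thus nearly level, though the muscle level was higher in the inhibition grafts. With 6 samples the covariate and the group cannot be told apart. Of the 7 melanoma markers 6 were positive and none was at an unadjusted p under 0.05 (median 0.10).

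The count of 15 members at an unadjusted p under 0.05 depended on single grafts, and so did the count over all genes, which was 15.4%. Without inhibition 1 it was 9 members and 8.79% of all genes, without inhibition 2 it was 10 and 10.8%, without control 1 it was 7 and 10.1%, and without control 3 it was 6 and 13.7%. Without inhibition 3 it was 27 members and 17.0% of all genes, and without control 2 it was 28 and 18.8%. Leaving out inhibition 3 gave 3 members called by edgeR at an adjusted p under 0.05, Flg higher and Sprr2d and Sprr2f lower, where 1.37% of all genes were called. The fitted log2 fold changes were then -6.84 for Sprr2d and -7.58 for Sprr2f, values that rest on 1 and 0 counts in the inhibition libraries left and depend on the fit's handling of 0 counts. Leaving out each of the other libraries gave 0 members.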

How the data were processed

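RNA of 6 whole tongue grafts was sequenced, 3 inhibition and 3 control, and the authors deposited a table of raw read counts per Ensembl gene, with no normalization visible in the values. Per the submitters' processing notes HISAT2 2.0 and mm10 were used; the counter, annotation release, filters and strand setting are not given in the sources used here. Columns were matched to samples by name, where the deposited columns speak of denervation and the titles of inhibition. Symbols matched 55141 of 55487 IDs; coordinates and exon lengths are from GENCODE M21 on GRCm38.

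Genes were kept by filterByExpr (count minimum 10, total minimum 15), scaled by TMM and tested with edgeR 4.0.16 in R 4.3.3 (robust quasi-likelihood, Benjamini-Hochberg over 15666 genes, threshold 0.05), after the fit was checked on simulated counts. Standard errors are the absolute log2 fold change over the square root of F. Members, gene lists and tests were chosen with earlier results of these data known. Members named with a test were those with an unadjusted p under 0.05 and the 2 of highest CPM per subfamily; others named, among them Sprr2e, Hrnr, Crct1, Ivl and the genes outside the members, were picked after their values were seen. Covariates were mean log2 CPM (prior count 2). Alternatives included DESeq2 1.42.0 and limma-voom (limma 3.58.1). Promoters are from RefSeq and were aligned with Biopython 1.88. Intervals cover counting error only.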

Additional observations from a re-analysis of the deposited data

How the results depend on the processing

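With RLE or upper-quartile factors, and when genes had to reach 1 CPM throughout either group, the 0 calls at an adjusted p under 0.05 and the count at an unadjusted p under 0.05 stayed within 1.5 times, and each member still tested kept its direction. Calls at an adjusted p under 0.05 numbered 10 with no filter on low counts (4.12% of all genes), 10 with DESeq2 (3.68%) and 4 with the basal keratin covariate (0.581%), against 0.0383% of all genes in the reported fit. With limma-voom 0 of all 15666 genes were called, members included. It put 21 members at an unadjusted p under 0.05, and 15.5% of all genes. At an unadjusted p under 0.05 there were 24 with no filter (12.5% of all genes), 31 with the replicate number as a block (15%), 1 with the muscle covariate (3.24%) and 1 of 7 when counts were summed by subfamily. Leaving out single libraries gave between 0 and 3 calls, and between 6 and 28 members at an unadjusted p under 0.05. Same-numbered grafts had correlations of -0.18, 0.33 and 0.09 in their deviations from the group means, so the block paired only numbers; inhibition 1 correlated best with control 2 (0.14). The log2 fold change of Sprr2a3 turned to -0.76 with limma-voom, -0.43 with the replicate block, -1.42 without inhibition 3 and -0.16 without control 1; leaving out each library in turn put it between -1.42 and 0.58. Under the muscle covariate 22 of the 36 fold changes changed sign. Among members with an unadjusted p under 0.05 or of the 2 highest CPM in their subfamily, these were Sprr2d (0.16), Sprr1b (-0.49), Sprr3 (-0.25), Lce1b (-0.15), Lce1d (-0.08), Lce1e (-0.46), Lce1f (-0.51), Lce1k (-0.31), Lce3a (-0.73), Rptn (-0.35) and Cnfn (-0.39). The cause was not tested. Low counts limit Sprr2e, Sprr2f, Ivl and Flg.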
